A study of Rattus norvegicus with 6 samples.

Results

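Mast cells of the gut wall store proteases in their granules and carry the high-affinity IgE receptor on their surface. The genes described here are 9 of a chosen list of 10 that encode such proteins in the rat. That list does not hold every such gene, and Cma1 and Fcer1g, for example, are not in it. The 9 are the chymase-like proteases Mcpt1, Mcpt3, Mcpt4, Mcpt9 and Mcpt10, the carboxypeptidase Cpa3, the tryptase Tpsab1, and the receptor subunits Fcer1a and Ms4a2. They are the listed genes for which the array annotation gives a row with 1 gene symbol, out of 14506 genes that could be named in this way. Mcpt2 had no such row under its own symbol and was not analysed here under that name, although RefSeq gives rMCP-2, its protein, as a synonym of Mcpt1. Each of the 9 genes had a single row, so no choice between rows was needed.

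The samples are ileum, where the small intestine ends, from 6 Zucker fa/fa rats aged 20 weeks, which lack a working leptin receptor and are obese. A duodenum-jejunum bypass (DJB) in 3 of them led food past the duodenum and upper jejunum, and in the other 3 a sham operation cut and rejoined the bowel so that food kept its normal path. All 6 rats carried the fa/fa genotype, and were killed 14 days after surgery. Each was measured on 1 array of an Affymetrix whole-transcript design, and values are log2 levels after RMA, whose median over all rows was 6.11. Whole tissue was used, so fewer mast cells and less RNA per mast cell cannot be told apart in any result below.

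In the rat gut, mucosal mast cells lie in the lamina propria and among epithelial cells, and their chymase rMCP-2 has long been used as a marker of their number and release. Connective tissue mast cells, found deeper in the wall, hold other chymases with tryptases and much carboxypeptidase. IgE bound to the receptor triggers release of the granules when an antigen cross-links it. Stem cell factor, encoded by Kitlg, keeps mast cells alive through the receptor Kit.

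All 5 chymase-like members lie on chromosome 15 in RefSeq's GRCr8 annotation, in a cluster that also holds Cma1 and the cathepsin G and granzyme genes. Mcpt9, Mcpt1, the related gene Mcpt1l1 and Mcpt10 follow one another there. The cluster arose by gene duplication, and its copies remain alike, so probes of one gene may also bind transcripts of another. A further 2 rows list Mcpt9 or Mcpt10 together with other genes of the cluster, and they were left out. RefSeq promoter sequences were at hand for 7 of the 9 members, and for Mcpt10 and Ms4a2 none is shown.

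The 250 bases before the start site that RefSeq's promoter table gives for Mcpt1 and Cpa3 are shown because their levels were lower after DJB in every rat than in any sham rat. Those of Mcpt9, a neighbour of Mcpt1 whose groups overlapped, are shown for contrast. RefSeq's full gene range begins further upstream for Mcpt9 and Cpa3, so that 82 and 16 bases of their windows lie inside it. Capitals mark the motifs GATAA (the core bound by GATA factors) and TATAA (the TATA box core), searched on both strands as GATAA or TTATC and TATAA or TTATA.
Mcpt1 (chr15:33841356-33841605, GRCr8, plus strand): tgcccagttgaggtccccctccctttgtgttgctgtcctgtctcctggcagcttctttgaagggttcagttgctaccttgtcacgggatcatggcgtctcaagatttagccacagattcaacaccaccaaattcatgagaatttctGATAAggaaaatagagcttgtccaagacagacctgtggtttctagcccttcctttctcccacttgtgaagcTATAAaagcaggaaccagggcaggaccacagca
Cpa3 (chr2:104673238-104673487, GRCr8, minus strand): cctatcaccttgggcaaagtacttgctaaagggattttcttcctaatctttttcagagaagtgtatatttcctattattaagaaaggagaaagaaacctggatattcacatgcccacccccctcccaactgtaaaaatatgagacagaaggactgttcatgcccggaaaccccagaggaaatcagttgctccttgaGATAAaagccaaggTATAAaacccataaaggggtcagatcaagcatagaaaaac
Mcpt9 (chr15:33827180-33827429, GRCr8, plus strand): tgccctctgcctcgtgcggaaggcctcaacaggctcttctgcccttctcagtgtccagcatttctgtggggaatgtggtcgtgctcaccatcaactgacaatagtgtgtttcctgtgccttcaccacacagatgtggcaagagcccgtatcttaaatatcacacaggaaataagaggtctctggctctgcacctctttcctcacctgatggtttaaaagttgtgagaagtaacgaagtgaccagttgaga

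The Mcpt1 window held GATAA starting 104 bases and TATAA starting 33 bases before the start site, and the Cpa3 window held them at 54 and 40 bases. The Mcpt9 window held neither motif. Mcpt1 and Cpa3 were not alone in holding the motifs. Mcpt3, Mcpt4 and Fcer1a, whose groups overlapped, held both as well, and Tpsab1 held GATAA. Mcpt1l1, which was higher in every DJB rat than in any sham rat, also held both. The rows of Mcpt3, Mcpt4, Fcer1a, Tpsab1 and Mcpt1l1 all lay under the median of all rows, where a difference can be understated. A link between motif and difference was not tested. Among 33469 RefSeq windows of the same length, 23.5% held GATAA and 24.0% held TATAA on either strand, and 4.3% held TATAA on the gene's strand within the last 50 bases. These matches describe letters and not binding sites. By alignment, Mcpt1, Mcpt3, Mcpt4, Mcpt1l1, Mcpt1l3 and Mcpt4l1 shared 82.6% to 95.3% of aligned bases in this window, and Mcpt9, Mcpt8, Mcpt8l2 and Mcpt8l3 shared 94.5% to 96.7%. Between these sets, called Mcpt1-like and Mcpt8-like here, identity was 58.1% to 68.9%. The sets were not derived by clustering. Cma1 stood with neither, at 60.0% to 65.6% with the Mcpt1-like set and 59.4% to 69.5% with the Mcpt8-like set. The Mcpt1l3 window lay wholly inside RefSeq's gene range, as did 44, 74 and 92 bases of the Fcer1a, Mcpt8 and Mcpt8l2 windows.

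DJB and sham ileum were compared to ask whether transcripts of gut mast cells differ after the bypass. Mcpt1 and Cpa3 were lower in all 3 DJB rats than in any sham rat, Mcpt1 by 1.45-fold and Cpa3 by 1.28-fold, but neither passed the test over all genes. The receptor genes Fcer1a and Ms4a2 lay at nearly the same mean level in both groups, on rows under the median of all rows, where a difference can be understated. By limma, 0 of the 9 genes passed an adjusted p of 0.05, a threshold that 0.772% of all genes passed. At an unadjusted p under 0.05 there were 2 of 9, where 14.3% of all genes stood.

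In 2 of the 9 (22.2%) the groups did not overlap, against 21.1% of all genes. A share so near the background is no result about these genes as a group. Both of these members were lower after DJB, and among all genes 6.56% were lower without overlap and 14.5% higher. In direction, 7 of the 9 had a lower mean after DJB and 2 a higher one. Their median difference was -0.04 on the log2 scale, against 0.05 over all genes, of which 38.3% were lower.

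**Figure D1:**
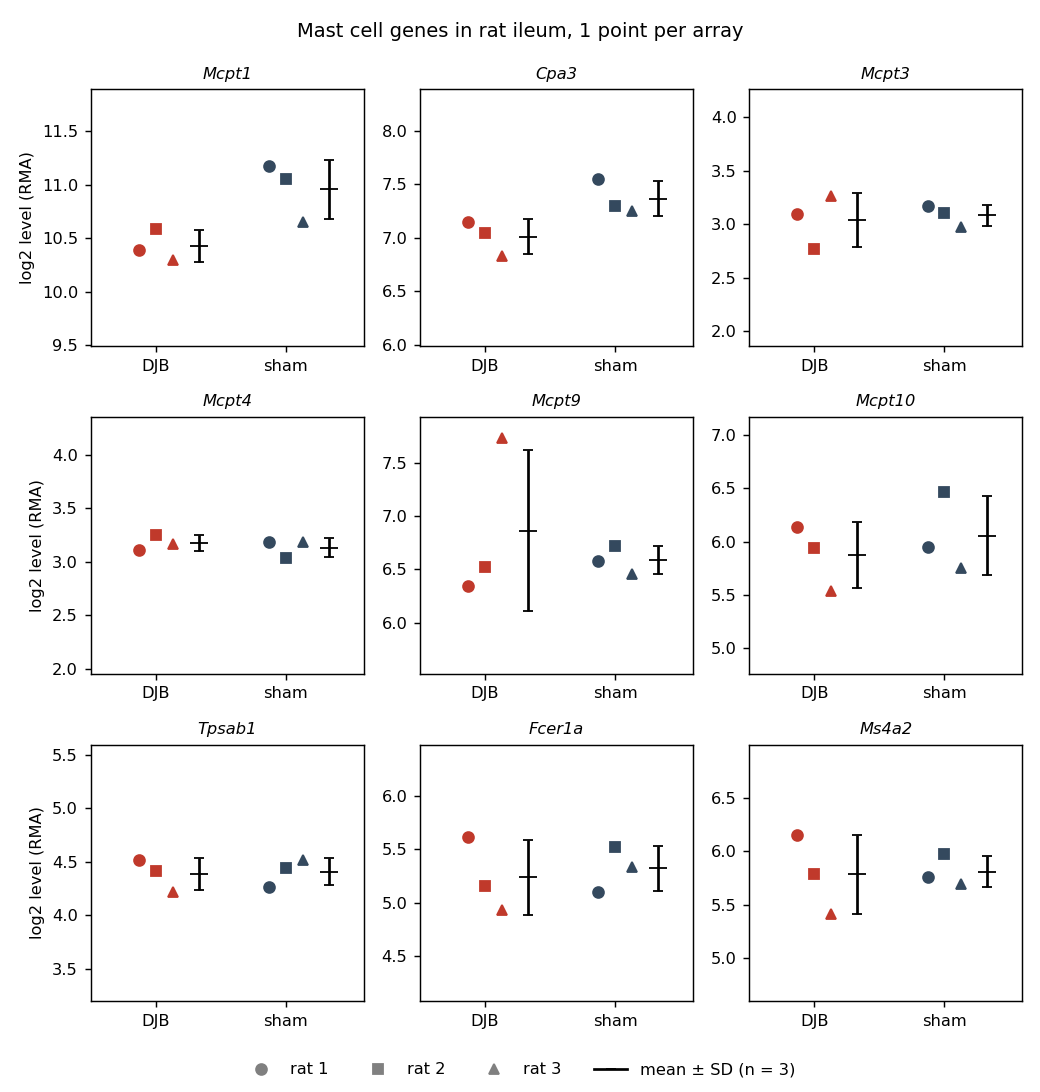
Log2 level (RMA) of the 9 mast cell genes on each of the 6 arrays, DJB left and sham right, with group mean and SD (n = 3) beside the points; each panel has its own axis of the same length. Mcpt1 and Cpa3 are the only 2 of the 9 genes whose DJB points all lie under the sham points, and Mcpt9 has 1 DJB point, that of rat 3, far above the other 5.

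The Mcpt1 row is named for a chymase gene to which RefSeq gives both rMCP-1 and rMCP-2 as synonyms, and rMCP-1 is also a synonym of Mcpt1l1. Whether the row measures the mucosal chymase rMCP-2, rMCP-1 or both is not settled by the annotation. Its level was 10.39, 10.59 and 10.30 in DJB rats 1 to 3, against 11.18, 11.05 and 10.65 in sham rats 1 to 3. The highest DJB value, of rat 2, lay just under the lowest sham value, of rat 3. Mean levels were 10.43 ± 0.15 in DJB and 10.96 ± 0.27 in sham (SD, n = 3 each). The difference was -0.53 ± 0.15 (SE), with a 95% interval of -0.87 to -0.20 (limma adjusted p = 0.164). By exact permutation (two-sided) p was 0.1, the smallest p that 3 against 3 arrays allow. Leaving out any 1 array left the difference between -0.69 and -0.42.

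Cpa3 encodes mast cell carboxypeptidase, an exopeptidase stored in granules with the chymases. Its level was 7.15, 7.04 and 6.83 in DJB rats 1 to 3, against 7.55, 7.30 and 7.25 in sham rats 1 to 3. Every DJB value lay under every sham value, and sham rat 1 was the highest for both Cpa3 and Mcpt1. Mean levels were 7.01 ± 0.16 in DJB and 7.37 ± 0.16 in sham (SD, n = 3 each), a difference of -0.36 ± 0.12 (SE; limma adjusted p = 0.241). Its 95% interval was -0.63 to -0.08, and the exact permutation test again gave p = 0.1. The difference was -0.26 without sham rat 1 and -0.27 without DJB rat 3.

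Mcpt9 and Mcpt10 belong to the Mcpt8-related branch of the cluster, and RefSeq lists a granzyme-like protein name as a synonym of Mcpt10. Mcpt9 was at 6.34, 6.52 and 7.73 in DJB rats 1 to 3, against 6.58, 6.72 and 6.46 in sham rats 1 to 3. DJB rat 3 was the highest of the 6, while DJB rat 1 was the lowest, so the groups overlapped. The difference of 0.28 ± 0.31 (SE; limma adjusted p = 0.734) turned to -0.16 without DJB rat 3.

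Mcpt10 was at 6.14, 5.94 and 5.54 in DJB rats 1 to 3, against 5.95, 6.46 and 5.75 in sham rats 1 to 3. Here DJB rat 3 was the lowest of the 6 and sham rat 2 the highest. The difference was -0.18 ± 0.20 (SE; limma adjusted p = 0.734), and 0.02 without sham rat 2. The rows of Mcpt9 and Mcpt10 thus stood at opposite ends in the same rat.

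DJB rat 3 also carried the highest levels of the granzyme genes Gzmb and Gzma and of Cd8a, whose values were looked at after that of Mcpt9 was seen. Gzmb, granzyme B, which lies in the same gene cluster, was at 8.67, 8.51 and 10.33 in DJB rats 1 to 3, against 7.89, 8.45 and 7.54 in sham rats 1 to 3. Gzma, granzyme A of T and NK cells, was at 7.70, 7.37 and 9.05 in DJB, against 7.46, 8.35 and 7.35 in sham. In both genes DJB rat 3 stood above the other 5 rats, though Gzmb differed by 1.21 ± 0.43 with an adjusted p of 0.256 (limma) and Gzma by 0.32 ± 0.41. Cd8a, the co-receptor of cytotoxic T cells, was at 8.61 in that rat, and at 7.83 and 7.75 in DJB rats 1 and 2, against 7.74, 7.99 and 7.76 in sham. The mean level of the 9 T and NK cell markers was 7.67, 7.26 and 8.03 in DJB and 7.28, 7.62 and 7.30 in sham. All 9 had a higher DJB mean, the smallest difference being 0.017 for Cd3e. Over all genes 38.3% were lower after DJB. Of the 9 markers 0 passed by limma (1 at an unadjusted p under 0.05, where 14.3% of all genes stood). Their summed linear level was 3892, 2661 and 3839 in DJB rats 1 to 3, against 2707, 3669 and 2608 in sham rats 1 to 3, so by this measure DJB rat 1 was the highest. Cd3g, a chain of the T cell receptor complex, was at 11.30 in DJB rat 1 and 10.79 in DJB rat 3, so not every T cell marker peaked in rat 3. The part of these cells in the Mcpt9 value was not tested.

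**Figure D2:**
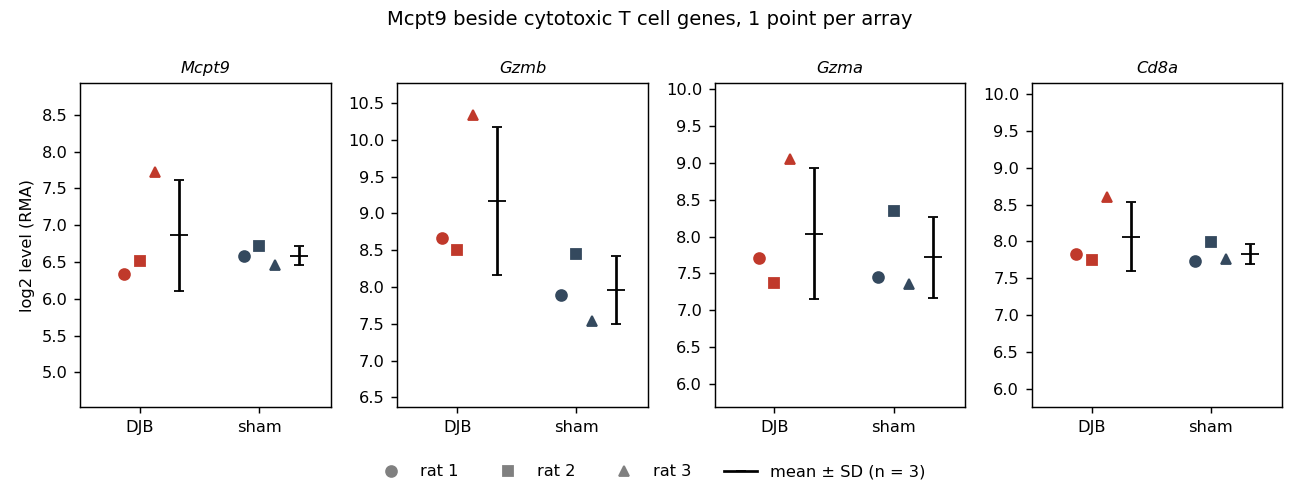
Log2 level (RMA) of Mcpt9 and of the cytotoxic cell genes Gzmb, Gzma and Cd8a on each array, DJB left and sham right, with group mean and SD (n = 3). In each panel the point of DJB rat 3 is the highest of the 6, for Mcpt9 at 7.73 and for Gzmb at 10.33.

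Mcpt3, Mcpt4 and Tpsab1 gave dim rows, well under the median of all rows, where a difference can be understated and no detection call was at hand. The same limit holds for Mcpt10, Fcer1a and Ms4a2, whose means over the 6 arrays (5.96, 5.28 and 5.80) also lay under that median. Mcpt3, another chymase-like protease of the cluster, was at 3.09, 2.77 and 3.26 in DJB and 3.17, 3.10 and 2.97 in sham rats 1 to 3. Mcpt4, of the same Mcpt1-like branch, was at 3.11, 3.25 and 3.16 in DJB and 3.18, 3.03 and 3.18 in sham. Tpsab1, the tryptase also called Mcpt7, was at 4.51, 4.42 and 4.22 in DJB and 4.27, 4.45 and 4.51 in sham.

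In these 3 genes the groups overlapped and the differences were -0.04 ± 0.13, 0.04 ± 0.10 and -0.03 ± 0.11 (SE; limma adjusted p from 0.878 to 0.945). The 95% intervals, -0.35 to 0.26 for Mcpt3, -0.17 to 0.26 for Mcpt4 and -0.28 to 0.23 for Tpsab1, correspond to DJB over sham ratios between 0.786 and 1.20. The sign of Mcpt4 turned when quantile normalisation was repeated, and all 3 signs turned when 1 array was left out.

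Fcer1a encodes the subunit of the high-affinity receptor that binds IgE. It was at 5.62, 5.16 and 4.93 in DJB rats 1 to 3, against 5.10, 5.52 and 5.33 in sham rats 1 to 3. The DJB rats held both the highest and the lowest of the 6 values. The difference was -0.08 ± 0.18 (SE; 95% interval -0.48 to 0.32; limma adjusted p = 0.874).

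Ms4a2 encodes the beta subunit of the same receptor, which amplifies its signal. It was at 6.15, 5.79 and 5.41 in DJB rats 1 to 3, against 5.76, 5.97 and 5.69 in sham rats 1 to 3. Again DJB rat 1 was the highest and DJB rat 3 the lowest, and the groups overlapped. The difference was -0.02 ± 0.17 (SE; 95% interval -0.42 to 0.37; limma adjusted p = 0.968). Without DJB rat 3 the differences were 0.07 for Fcer1a and 0.16 for Ms4a2, so that both signs turned.

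**Figure D3:**
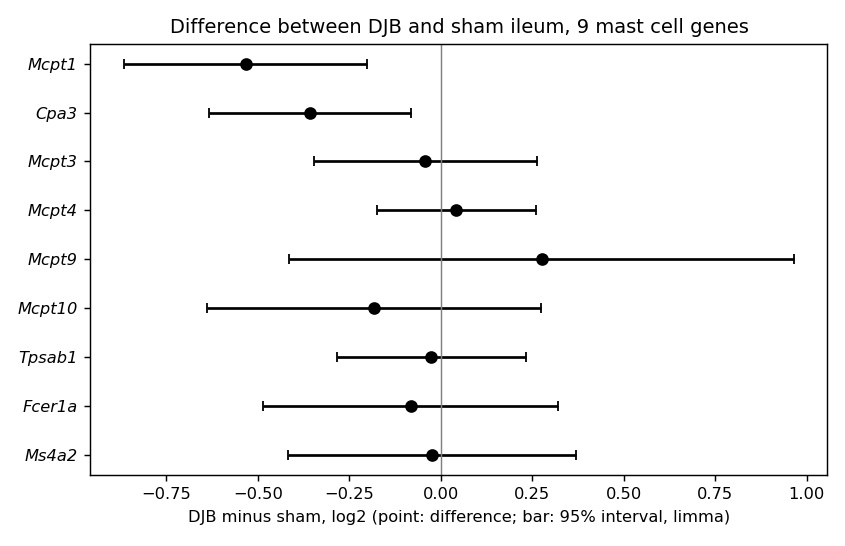
Difference DJB minus sham on the log2 scale for the 9 mast cell genes, with the 95% interval of the limma fit (3 arrays per group). The intervals of Mcpt1 and Cpa3 lie under 0 before adjustment over all genes, and the other 7 include 0.

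The members varied in more than one way across the rats. After each group's mean was taken away, Fcer1a and Ms4a2 moved together over the 6 arrays (Pearson r = 0.91), and Mcpt10 moved with Ms4a2 (0.87) and Fcer1a (0.77). Tpsab1 moved with Fcer1a as well (0.85). Mcpt1 went less closely with Mcpt10 (0.51) and Ms4a2 (0.31), not with Fcer1a (-0.08), and against Tpsab1 (-0.31). Its highest value was with Cpa3 (0.65). Cpa3 in turn stood at 0.61 with Ms4a2, 0.4 with Mcpt10, 0.26 with Fcer1a and 0.08 with Tpsab1. Mcpt9 ran against the receptor genes, at -0.65 with Fcer1a and -0.78 with Ms4a2. With the group difference kept in, Mcpt1 and Cpa3 reached 0.88. These values describe 6 arrays that share their normalisation, and 6 of the 9 members were lowest in DJB rat 3. Fcer1a, Ms4a2, Mcpt10 and Tpsab1 were among these 6, and their rows all lay under the median of all rows. Mcpt9 was highest in that rat.

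**Figure D4:**
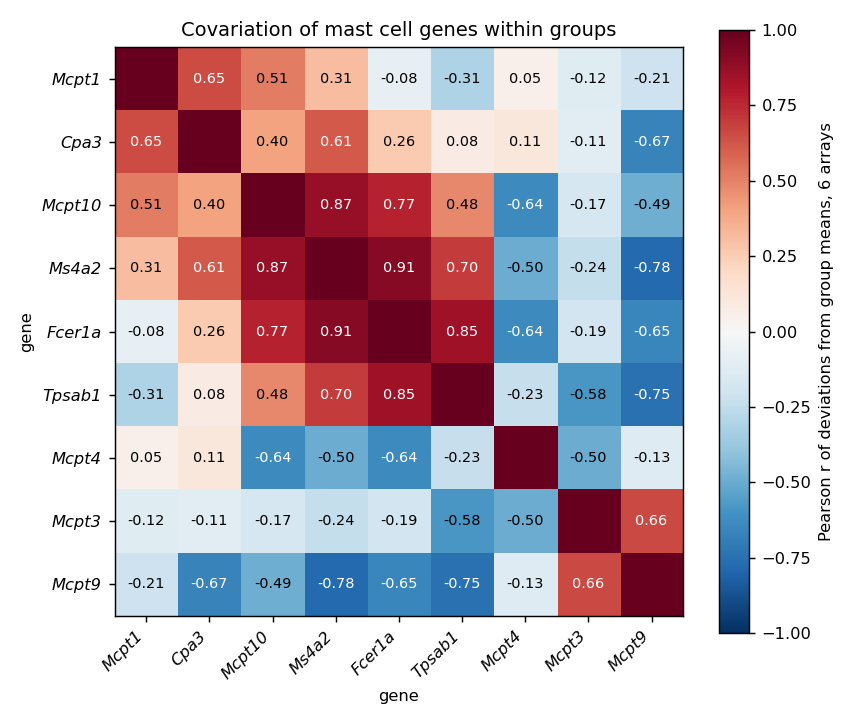
Pearson correlation between the 9 mast cell genes over 6 arrays after each group's mean was taken away, from -1 in blue to 1 in red. Ms4a2, Fcer1a, Mcpt10 and Tpsab1 form a block of positive values from 0.48 to 0.91, and Mcpt9 is negative with all of them. The rows of the genes in this block all lie under the median of all rows.

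Likeness was sought to the mean of the 3 members at or above the median of all rows (Mcpt1, Mcpt9 and Cpa3). Over the 6 arrays Mcpt9 ran against Mcpt1 (r = -0.36) and Cpa3 (-0.62), so this mean mixes unlike patterns. The 5 genes of most similar pattern to it were Or52j3b, Hnmt, Anp32a, Gcsh and Polr3g, with r from 0.975 to 0.994. Hnmt encodes histamine N-methyltransferase, which inactivates histamine. It differed by -0.43 and did not pass (limma adjusted p = 0.329). With group means taken away, the 5 were Selenot, Snx5, Fermt3, Or52j3b and Mrpl47, with r from 0.992 to 0.999. With 14506 genes and 6 arrays these values are a description only.

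Of the other genes of mast cell development, granules and mediators, 23 of 26 listed were measured, with a median difference of 0.04. By limma 1 fell and 0 rose, where 0.772% of all genes passed. At an unadjusted p under 0.05 there were 4, where 14.3% of all genes stood. The gene that fell was Enpp3, an ectonucleotidase and surface marker of activated mast cells and basophils, which enterocytes of the small intestine also carry. It was at 7.79, 7.40 and 7.19 in DJB, against 10.47, 10.39 and 10.43 in sham, a difference of -2.97 ± 0.15 (SE; limma adjusted p = 5.2e-05). No member of the 9 showed a difference of that size.

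The 4 genes of next lowest p in this list went both ways. Cma1, the chymase of connective tissue mast cells, was at 5.79, 5.28 and 5.61 in DJB, against 4.97, 5.24 and 5.28 in sham, and differed by 0.40 ± 0.15 (SE; adjusted p = 0.265). Every DJB value lay above every sham value, though DJB rat 2 and sham rat 3 were equal to 2 decimals. Alox5ap, which helps make leukotrienes, differed by -0.29 ± 0.12, the inhibitory receptor gene Cd200r1 by 0.39 ± 0.16, and the prostaglandin D synthase gene Hpgds by 0.27 ± 0.12. None of these 4 passed (adjusted p from 0.265 to 0.366).

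Kit, Hdc and Kitlg, genes that mark or sustain mast cells, were chosen after their values were seen, and in none did the groups separate. Kit, the stem cell factor receptor, was at 7.24, 7.04 and 7.12 in DJB, against 7.28, 7.14 and 7.36 in sham. Hdc, the enzyme that makes histamine, was at 5.68, 5.43 and 5.31 in DJB, against 5.27, 5.56 and 5.24 in sham. In both genes the groups overlapped, with differences of -0.13 ± 0.10 for Kit and 0.12 ± 0.13 for Hdc (SE; limma adjusted p = 0.625 and 0.734). The ligand gene Kitlg differed by -0.05 ± 0.10. Kit is also made by the pacemaker cells of the gut wall, and Kitlg by the epithelium.

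Genes that carry the signal of the IgE receptor were measured for all 16 listed, of which 0 passed by limma (1 at an unadjusted p under 0.05). Their median difference was -0.09, and 11 of the 16 were lower. The adaptor gene Gab2 was at 7.68, 7.43 and 7.50 in DJB, against 7.76, 7.69 and 7.90 in sham, a difference of -0.25 ± 0.11 (SE; adjusted p = 0.338). The gamma chain gene Fcer1g, shared with receptors of macrophages and NK cells, differed by 0.27 ± 0.15, the kinase gene Fyn by 0.25 ± 0.19 and the calcium channel gene Orai1 by -0.13 ± 0.11. The markers of macrophages, which also make Fcer1g, were higher after DJB in 5 of 5 cases with 0 passing (3 at an unadjusted p under 0.05). Among all genes 38.3% were lower after DJB, and 14.3% had an unadjusted p under 0.05 by limma. The part of macrophages in the Fcer1g value was not tested.

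Of the ligands, type 2 cytokines, and homing and maturation genes, 22 of 24 were measured and 0 passed by limma. In this list 4 had an unadjusted p under 0.05, where 14.3% of all genes stood. Their median difference was 0.055, against 0.05 over all genes. Il18, an epithelial cytokine, was at 6.83, 6.77 and 6.62 in DJB, against 7.46, 7.10 and 7.08 in sham, and differed by -0.48 ± 0.13 (SE; adjusted p = 0.149). Madcam1, the vessel address molecule for gut homing cells, differed by -0.28 ± 0.09, while Itgb7, a chain of the integrin that binds it, differed by 0.34 ± 0.15. Cxcr2, a chemokine receptor of neutrophils that mast cell precursors use in mice, differed by 0.43 ± 0.14 on a dim row. The adjusted p of these 3 ran from 0.221 to 0.350.

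Among the relatives of the chymase cluster, 7 of 17 were measured and 0 passed by limma. At an unadjusted p under 0.05 there were 3, Cma1 among them, where 14.3% of all genes stood. The median difference was 0.32, against 0.05 over all genes. Of the 7, 5 were higher after DJB, and 38.3% of all genes were lower. Rows under the median of all rows made up 5 of the 7. Mcpt1l1, for which RefSeq lists Mcpt1 and rMCP-1 as synonyms, was at 4.54, 4.36 and 4.33 in DJB, against 4.01, 4.21 and 4.04 in sham. Every DJB value lay above every sham value, with a difference of 0.32 ± 0.10 (SE; adjusted p = 0.216), opposite in sign to that of the Mcpt1 row, which is not dim. Gzmf, a granzyme of the cluster, differed by 0.36 ± 0.26 and, like Gzmb, was highest in DJB rat 3, at 7.31.

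Genes whose proteins mast cell proteases can act on or that inhibit such proteases were measured for all 14 listed, and 0 passed by limma. In this list 3 had an unadjusted p under 0.05, where 14.3% of all genes stood. Their median difference was 0.03. Slpi, a secreted inhibitor of serine proteases, was at 9.35, 9.22 and 9.71 in DJB, against 9.06, 9.01 and 8.96 in sham, with no overlap and a difference of 0.42 ± 0.13 (SE; adjusted p = 0.206). The thrombin receptor gene F2r differed by 0.35 ± 0.13, the fibronectin gene Fn1 by 0.44 ± 0.16 and the tight junction gene Ocln by 0.26 ± 0.12. F2rl1, the receptor that tryptase cleaves, was added after its values were seen and was at 9.17 in DJB and 9.25 in sham on average.

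Markers of other cells were read on the same arrays. Of the 6 ileal epithelium markers, all above the median of all rows, 1 rose, the bile acid transporter gene Slc10a2 (12.13 in DJB and 10.40 in sham on average), and 5 of the 6 had a higher DJB mean. Their summed linear level was 38342 to 41343 in DJB and 30406 to 34582 in sham, ranges that did not overlap. That sum holds the bile acid genes Slc10a2 and Fabp6, the ileal bile acid binding protein (13.88 in DJB and 13.57 in sham on average). Of the general epithelial genes, Vil1 and Cdh1 differed by -0.0075 and 0.10, with overlap. Epcam and Krt20 differed by 0.21 and 0.11, and in both every DJB value lay above every sham value. None of these general genes passed by limma (adjusted p from 0.338 to 0.98). The part of the epithelium in the lower Mcpt1 and Cpa3 values was not tested. Smooth muscle markers were higher in 5 of 5 cases with 0 passing (1 at an unadjusted p under 0.05). The smallest of these differences was 0.0052, for Myh11. Of all genes 38.3% were lower after DJB, 14.3% had an unadjusted p under 0.05 by limma and 0.772% passed. Summed levels of the smooth muscle markers were 9189 to 10830 in DJB and 7491 to 10086 in sham. For connective tissue mast cell markers, of which Cpa3, Mcpt4 and Tpsab1 are among the 9 genes described here, the summed level was 385 to 484 in DJB and 429 to 488 in sham. Only Cpa3 and Ndst2 of the 6 were not on dim rows, and the differences of Cma1 (0.40) and Cpa3 (-0.36) had opposite signs.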

How the data were processed

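The authors deposited log2 expression values for 29214 rows on 6 arrays, and RMA, given without a version, stands alone in the list of methods, per the submitters' processing notes. RMA corrects background, makes the arrays' distributions alike and summarises probes on the log2 scale, which hides any shift common to most genes. Array medians were 6.08 to 6.19, and arrays correlated at 0.990 to 0.993 within and 0.987 to 0.990 between groups, over all rows. Precision is limited by the 3 arrays per group; the labels call them biological replicates and give no batch.

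Values were used as deposited. The platform annotation gave 15310 rows with 1 symbol, 323 with several and 13581 with none; the brightest row stood for a gene with several (527 genes), leaving 14506. DJB and sham were compared with limma 3.58.1 in R 4.3.3 (lmFit, eBayes, two-sided, Benjamini-Hochberg over all genes), tested on simulated data. Sequences are RefSeq's for GRCr8.

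The members and gene lists were chosen with earlier results of these data known. Named were all members, from each of the 5 lists of mast cell biology the genes that passed and the 4 of lowest p, and the 5 genes of most similar pattern; others, and examples from the marker lists of other cells, were picked with their values in view. Alternatives tried were a replicate block, other normalisation, a filter on dim genes, other variance priors, row averaging, all rows, and leaving out each array. Figures used matplotlib 3.10.9 in Python 3.11.15.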

Additional observations from a re-analysis of the deposited data

How the results depend on the processing

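None of the members tested passed under any of the 14 alternatives run. With dim genes left out, 3 members (Mcpt1, Mcpt9 and Cpa3) could be tested, and the other 6 gave no value. The adjusted p of Mcpt1 ran from 0.0697 (eBayes with an intensity trend) to 0.374 (without sham rat 1), and that of Cpa3 from 0.132 to 0.510, with both differences negative throughout. Over all genes, 112 passed as designed, 50 with the replicate number as a block, 225 of 8837 with dim genes left out and 295 with an intensity trend. Leaving out 1 array gave 33 to 108. The labels do not say that the replicate numbers pair the rats. Deviations of same-numbered rats from their group means correlated at 0.005, -0.121 and -0.149, and not every rat correlated best with its own number. Deviations from a mean of 3 rats are tied to one another, so these values cannot decide whether the rats were paired. Repeating quantile normalisation turned the sign of Mcpt4 (-0.0089). Leaving out 1 array gave ranges of -0.15 to 0.094 for Mcpt3, -0.0073 to 0.077 for Mcpt4, -0.16 to 0.54 for Mcpt9, -0.33 to 0.022 for Mcpt10, -0.27 to 0.070 for Fcer1a, -0.21 to 0.16 for Ms4a2 and -0.097 to 0.056 for Tpsab1. Arrays of 3 rats a group limit what can pass, and rows under the median of all rows can understate differences, which was not tested. The cause of these shifts was not tested.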

Other observations

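Markers of eosinophils and neutrophils gave dim rows in both groups. All 6 eosinophil genes lay under the median of all rows, with a summed linear level of 171 to 174 in DJB and 169 to 183 in sham, and 0 passed by limma (1 at an unadjusted p under 0.05). Among them Alox15, a lipoxygenase that macrophages also make, was at 5.73, 5.76 and 5.84 in DJB, against 6.05, 5.86 and 6.35 in sham, a difference of -0.31 ± 0.13 (SE; adjusted p = 0.321). The peroxidase gene Epx of eosinophil granules averaged 5.06 in DJB and 4.99 in sham. Epx and Mcpt8 were picked after their values were seen. Mcpt8, whose upstream window shared 96.3% of aligned bases with that of Mcpt9, was at 3.11, 2.86 and 3.94 in DJB, against 3.37, 3.96 and 3.06 in sham, so that DJB rat 3 and sham rat 2 were the high ones. Neutrophil markers lay under the median in 5 of 5 cases, with summed levels of 139 to 171 in DJB and 121 to 152 in sham. All 5 had a higher DJB mean, where 38.3% of all genes had a lower one. By limma 0 passed (1 at an unadjusted p under 0.05, S100a8, at 2.65 in DJB and 2.41 in sham on average). Basophil markers were measured for all 4 listed, with 0 passing by limma (1 at an unadjusted p under 0.05). Of all genes 14.3% had an unadjusted p under 0.05 by limma. B cell markers were measured for 3 of 5 listed, and 0 passed (0 at an unadjusted p under 0.05). Their mean level was 6.86, 4.94 and 5.92 in DJB rats 1 to 3, against 6.76, 7.05 and 5.91 in sham rats 1 to 3, with DJB rat 2 the lowest.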
